A study of Mus musculus with 10 samples.

Results

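The proteasome genes described here are the constitutive subunits and assembly chaperones, chosen by name: every gene symbol of the form Psma, Psmb, Psmc, Psmd, Psme, Psmf or Psmg followed by a number, without the interferon-inducible or thymic genes Psmb8, Psmb9, Psmb10, Psmb11, Psme1 and Psme2. The rule gave 42 genes of 24755 in the table, and the rule itself uses no measured value. They were followed in 10 bulk RNA-seq libraries of tumor cells from mouse pancreatic ductal adenocarcinoma (PDAC), the main cancer of the pancreatic ducts. Cells had been sorted by flow cytometry for PD-L1 on their surface, a ligand that holds T cells back through the receptor PD-1. PD-L1 high (3 libraries) held interferon gamma (IFNγ) treated cells with high PD-L1, treated all (3 libraries) held IFNγ-treated cells of all PD-L1 levels, and untreated all (4 libraries) held cells of all levels without IFNγ. The labels give a 20 hour stimulation and name no cell line, clone, genotype or age. The strain label is C57BL/6 for treated all and untreated all, but C57BL/7, C57BL/8 and C57BL/9 for PD-L1 high libraries 1, 2 and 3. Cells with high PD-L1 may be among those of treated all, and cells with low PD-L1 alone were not analysed here.

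The proteasome degrades proteins tagged with ubiquitin and makes most of the peptides shown on MHC class I. Its 20S core is a barrel of outer alpha rings and inner beta rings, and the beta subunits PSMB5, PSMB6 and PSMB7 carry the cutting sites. The 19S cap, made of a base with a ring of ATPases and of a lid, binds, unfolds and feeds in the substrate. IFNγ is known to induce PSMB8, PSMB9 and PSMB10, which take the places of PSMB5, PSMB6 and PSMB7 in newly built cores and give the immunoproteasome; the alpha ring, the structural beta subunits and the 19S cap are shared by both forms.

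The deposited signal comes with no stated unit, so depth is unknown and the levels of different genes are not ranked. Where the signals of different genes are added up or divided below, the result is read only between groups. Library totals were 698396 to 715500. Of the 42 members, 41 had a mean signal of at least 1 and were tested. Psma8, an alpha subunit of the testis, was listed at 0 in all 10 libraries and was not tested. Ductal epithelial markers were all measured, with a summed signal of 4805 to 4867 in PD-L1 high, 5285 to 5317 in treated all and 4300.0 to 4457 in untreated all. The sum hides opposite changes of single markers. With IFNγ 5 of the 7 were higher and 2 lower, and between the treated groups 3 were higher and 4 lower in PD-L1 high. Sox9 was at −1.19 (log2) and Epcam at 0.68 between the treated groups, and with IFNγ the values were −0.70 for Krt7 and 0.78 for Sox9. Of 7 leukocyte markers only Cd68 reached a mean of 1, with Cd3e and Adgre1 among those at 0, and the summed signal was 9.47 to 11.4 in PD-L1 high, 10.6 to 11.1 in treated all and 5.60 to 6.42 in untreated all. Fibroblast markers summed to 19.8 to 20.9 in PD-L1 high, 21.9 to 24.8 in treated all and 31.7 to 34.6 in untreated all. Between the treated groups Pdgfra was at −0.42 and Pdgfrb at 0.18. Acinar markers summed to 21.1 to 28.8 in PD-L1 high, 15.2 to 20.0 in treated all and 14.0 to 18.3 in untreated all, with Cpa1 and Ptf1a at 0. Here too the sum hides opposite changes. With IFNγ 2 of the 3 tested were higher and 1 lower, from −0.45 for Cela1 to 0.96 for Prss2. Between the treated groups Amy2a5 was at 0.81. The 4 endothelial markers summed to under 1 in every library. The part of other cells in the results was not tested.

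The mean of untreated libraries 3 and 4 lay unusually close to that of libraries 1 and 2. Over the 41 tested members the median absolute log2 difference between the mean of untreated libraries 3 and 4 and that of 1 and 2 was 0.003, against 0.042 and 0.025 for the other pairings. In 61.0% of the tested members, and in 65.0% of all tested genes, libraries 3 and 4 both lay between libraries 1 and 2. The untreated group may thus hold fewer than 4 independent libraries, which was not tested. Standard errors and adjusted p-values can therefore be too small, also in PD-L1 high against treated all, since all 10 libraries share an estimate of the spread. Statements that groups did not overlap carry the same limit where they involve untreated libraries. The counts over all members are also given without untreated libraries 3 and 4. Whether the libraries of a group came from separate cultures is not stated, so p-values may rest on technical spread alone. In bulk libraries a smaller share of cells with a transcript and less of it per cell cannot be told apart. A gene was called where limma, fitted over all 11487 tested genes on log2(signal + 1), gave a Benjamini-Hochberg adjusted p under 0.05, and "rose", "fell", "higher" and "lower" are used below for called genes only. Changes given below without another unit are log2 fold changes, with ± SE where an error is given.

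With IFNγ, most of the constitutive proteasome rose by small amounts. In treated all against untreated all 32 of 41 tested members rose (78%, against 23.1% of all tested genes) and 3 fell (7.32%, against 38.8%). The median log2 fold change of the members was 0.24, beside −0.07 over all tested genes. Of the 14 tested subunits of the 20S core 13 rose and 1 fell, with a median of 0.35; of the 17 subunits of the 19S cap in the lists 14 rose and 0 fell, with a median of 0.20. Without untreated libraries 3 and 4, 28 of the 32 rises and 2 of the 3 falls were still called, while 17.9% and 29.6% of all tested genes were called higher and lower. Over all tested genes 2648 were higher and 4458 lower. That split became 3594 against 3378 with median-ratio scaling and 3228 against 3427 with upper-quartile scaling, with 34 and 33 members then higher and 1 lower under each.

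**Figure D1:**
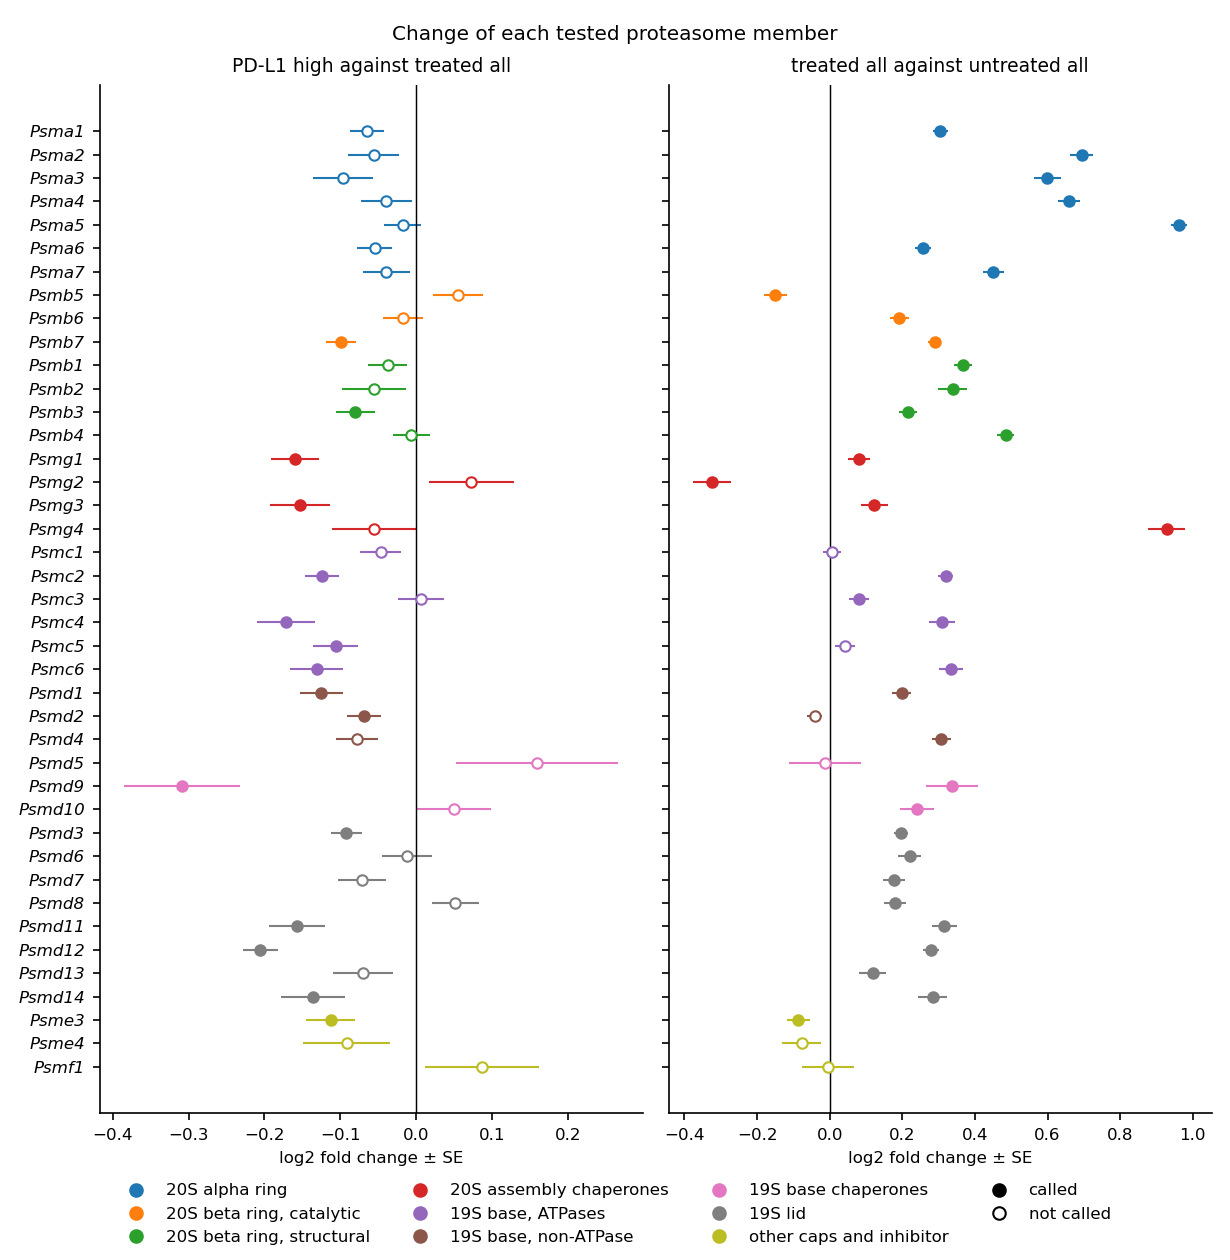
Log2 fold change with its standard error for each of the 41 tested members, coloured by role, in PD-L1 high against treated all (left) and treated all against untreated all (right), on different horizontal scales; filled points were called. Psma5 and Psmg4 lie farthest to the right with IFNγ, at 0.96 and 0.93, and no filled point lies right of 0 on the left side.

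Start regions are shown first because the size of the rise differed so much between members. They are those of the members that moved farthest with IFNγ and of the catalytic subunits Psmb5 and Psmb6. Psmb5 fell and Psmb6 rose, but the call of Psmb5 was lost with median-ratio or upper-quartile scaling. Windows of 250 bases before to 50 after the start site came from RefSeq (GRCm38.p6) for 34 of the 42 members, with 36 windows in all. Each is printed 5′ to 3′ on the gene's strand, with capitals for a match to TGACNNNGC (the core of the antioxidant response element, or ARE, read by the factors NRF1 and NRF2), TTCNNNGAA (the gamma-activated site, or GAS, of IFNγ-responsive genes) or GAAA, any 2 bases and GAAA again (the interferon-stimulated response element, or ISRE, read by IRF factors), searched on both strands.
Psma5 (chr3:108256676-108256975, plus strand): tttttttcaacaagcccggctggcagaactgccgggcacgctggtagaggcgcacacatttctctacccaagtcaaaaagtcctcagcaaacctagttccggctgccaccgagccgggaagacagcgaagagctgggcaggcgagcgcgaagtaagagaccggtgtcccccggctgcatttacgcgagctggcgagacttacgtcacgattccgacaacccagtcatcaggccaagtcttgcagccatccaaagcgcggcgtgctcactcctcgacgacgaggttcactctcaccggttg
Psmg4 (chr13:34162714-34163013, plus strand): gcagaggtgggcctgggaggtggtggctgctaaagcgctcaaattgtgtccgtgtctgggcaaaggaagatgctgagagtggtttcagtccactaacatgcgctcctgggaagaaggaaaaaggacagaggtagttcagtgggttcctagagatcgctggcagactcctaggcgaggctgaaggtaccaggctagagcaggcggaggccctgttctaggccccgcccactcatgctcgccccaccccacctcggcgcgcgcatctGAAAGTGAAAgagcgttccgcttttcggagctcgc
Psmb5 (chr14:54617946-54618245, minus strand): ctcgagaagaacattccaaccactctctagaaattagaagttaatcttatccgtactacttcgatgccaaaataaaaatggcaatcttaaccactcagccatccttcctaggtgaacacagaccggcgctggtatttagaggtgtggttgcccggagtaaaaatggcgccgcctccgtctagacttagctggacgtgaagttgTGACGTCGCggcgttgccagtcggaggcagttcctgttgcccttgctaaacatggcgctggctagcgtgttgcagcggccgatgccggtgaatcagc
Psmb6 (chr11:70525107-70525406, plus strand): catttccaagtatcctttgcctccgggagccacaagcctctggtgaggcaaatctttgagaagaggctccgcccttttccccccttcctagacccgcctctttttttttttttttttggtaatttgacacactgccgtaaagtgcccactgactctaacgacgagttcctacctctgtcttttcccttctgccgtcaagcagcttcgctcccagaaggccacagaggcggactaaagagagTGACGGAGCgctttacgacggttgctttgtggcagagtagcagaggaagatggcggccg

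The window of Psmg4 held an ISRE match whose first base lies at position 16, counted from 1 at the start site, and those of Psmb5 and Psmb6 held an ARE match at −47 and −9. The window of Psma5 held none of these letters, nor CCAAT, the box read by NF-Y. Over the members' windows 11.1% held an ISRE match (Psmb3, Psmd4, Psmd9 and Psmg4), 5.56% a GAS match (Psmd2 and Psmg1), 16.7% an ARE match (Psmb5, Psmb6, Psmc6, Psmd9, Psmd12 and Psme4) and 33.3% a CCAAT box. Over all 32851 windows of the table the shares were 3.44%, 8.3%, 12.4% and 37.4%. In the 4 windows shown no match of one motif overlapped one of another. A match of letters is not a bound site.

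The alpha ring, which gates the barrel and docks the cap, had the largest median of the roles: all 7 tested alpha subunits rose, with a median log2 fold change of 0.60 in treated all against untreated all, and 4 of them by at least 1.5-fold. Of all 11487 tested genes, 661 rose by at least 1.5-fold. Psma5 (chromosome 3, 108256926 to 108279974, plus strand, in GRCm38) gave signals of 238, 241 and 243 in PD-L1 high, 248, 247 and 237 in treated all, and 127, 123, 125 and 124 in untreated all. Both IFNγ-treated groups lay far above the untreated libraries and overlapped each other. The log2 fold change of treated all against untreated all was 0.96 ± 0.02 (SE; adjusted p = 2.6e-11), a 1.95-fold rise, and that of PD-L1 high against untreated all was 0.94 ± 0.02 (SE; adjusted p = 3.6e-11).

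Psma2 (chromosome 13, 14613240 to 14674236, plus strand) had 67.9, 69.2 and 64.8 in PD-L1 high, 71.4, 69.9 and 68.7 in treated all, and 41.8, 44.0, 43.0 and 42.7 in untreated all, with a log2 fold change of 0.69 ± 0.03 (SE; adjusted p = 9.8e-09) with IFNγ. Psma4 (chromosome 9, 54950790 to 54958030, plus strand) had 202, 202 and 195 in PD-L1 high, 199, 201 and 216 in treated all, and 131, 128, 127 and 132 in untreated all, with 0.66 ± 0.03 (SE; adjusted p = 1.3e-08). Psma3 (chromosome 12, 70974621 to 70996347, plus strand) had 146, 147 and 144 in PD-L1 high, 153, 155 and 159.5 in treated all, and 109, 96.7, 99.9 and 105 in untreated all, with 0.60 ± 0.04 (SE; adjusted p = 1.3e-07). In all 3 genes every treated library lay above every untreated one. These 3 genes and Psma5 overlap another annotated gene on the same or the opposite strand, and the sources used here do not say whether strand was used in counting. The other alpha subunits rose less: Psma7 by 0.45, Psma1 by 0.30 and Psma6 by 0.26, with treated signals of 247, 254 and 244 against untreated signals of 205, 211, 208 and 207 for Psma6. The rises within this ring, whose subunits are built into the core in equal numbers, spanned 1.2-fold to 1.95-fold. No alpha subunit's call was lost under any alternative tried.

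The catalytic beta subunits did not move together. Psmb5 (chromosome 14, 54614119 to 54618022, minus strand), the chymotrypsin-like site that PSMB8 replaces, had a signal of 162, 158 and 156 in PD-L1 high, 151, 159 and 149 in treated all, and 163, 176, 171 and 168 in untreated all. The untreated libraries were the highest, without overlap with either treated group, and the log2 fold change was −0.15 ± 0.03 (SE; adjusted p = 0.0015) in treated all against untreated all. That call was lost with median-ratio scaling (log2 value −0.06, adjusted p = 0.21) and upper-quartile scaling (−0.08, adjusted p = 0.12), and kept without untreated libraries 3 and 4 (adjusted p = 0.017).

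Psmb6 (chromosome 11, 70525367 to 70527858, plus strand), the caspase-like site replaced by PSMB9, had 379.7, 374 and 377 in PD-L1 high, 366, 381 and 398 in treated all, and 335, 334, 331 and 336 in untreated all, and rose by 0.19 ± 0.03 (SE; adjusted p = 5.5e-05) with IFNγ. Psmb7 (chromosome 2, 38588036 to 38644087, minus strand), the trypsin-like site replaced by PSMB10, had 244, 244 and 246 in PD-L1 high, 263, 261 and 262 in treated all, and 211, 219, 212 and 216 in untreated all, and rose by 0.29 ± 0.02 (SE; adjusted p = 1.8e-07). Treated and untreated libraries of both genes did not overlap. The annotation names 1 pseudogene after Psmb5, 2 after Psmb6 and 1 after Psmb7, with which reads could be shared. All 4 structural beta subunits rose, from 0.22 in Psmb3 to 0.48 in Psmb4, with Psmb1 at 0.37 and Psmb2 at 0.34. Psmb4 (chromosome 3, 94884093 to 94886961, minus strand) had 404, 423 and 412 in PD-L1 high, 413, 425 and 407 in treated all, and 291, 302, 294 and 298 in untreated all, with an adjusted p of 1.3e-08 for treated all against untreated all.

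In each replaced pair the inducible partner rose by a far larger factor than the constitutive one moved: Psmb8 by 6.58, Psmb9 by 6.54 and Psmb10 by 3.12 on the log2 scale in treated all against untreated all. The ratio of the Psmb8 signal to the Psmb5 signal was 4.50 to 4.73 in PD-L1 high, 4.16 to 4.40 in treated all and 0.0317 to 0.0364 in untreated all. The ratio of Psmb9 to Psmb6 was 0.633 to 0.644 in PD-L1 high, 0.513 to 0.58 in treated all and 0.00336 to 0.0047 in untreated all. The ratio of Psmb10 to Psmb7 was 1.53 to 1.62 in PD-L1 high, 1.25 to 1.41 in treated all and 0.176 to 0.199 in untreated all. The mean ratio was 124, 144 and 7.26 times higher in treated all than in untreated all for the 3 pairs, and these folds do not depend on gene length. The untreated Psmb9 signal was only 1.13 to 1.55, so the factor of 144 rests on low values. The ratios were taken on the signal without the added 1 of the log2 values. Between PD-L1 high and treated all the factors were 1.08, 1.16 and 1.16. The ratios of PD-L1 high and treated all did not overlap in any of the 3 pairs, and no test was run on them. Of all tested single genes, 17.4% were apart on the higher side between these groups. The share over other ratios was not computed. Psmb7, the divisor of the last ratio, fell between these groups, at −0.10, while Psmb10 was not called.

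**Figure D2:**
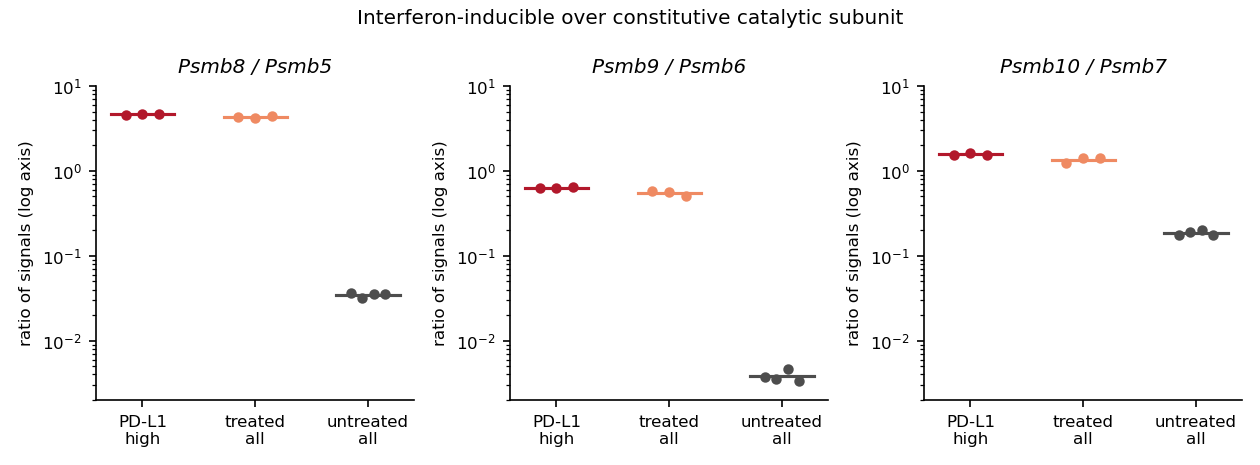
Ratio of the deposited signals of each inducible catalytic subunit to the constitutive one it replaces, on a logarithmic axis with the same range in each plot, 1 point per library and a line at the group mean. The Psmb8 to Psmb5 ratio is 4.50 to 4.73 in PD-L1 high, 4.16 to 4.40 in treated all and 0.0317 to 0.0364 in untreated all; the absolute ratio compares 2 genes whose signal may depend on their length.

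The 4 chaperones that build the alpha ring split. Psmg4 (chromosome 13, 34162964 to 34178173, plus strand), which pairs with PSMG3, had a signal of 98.3, 112 and 103 in PD-L1 high, 108, 114 and 104 in treated all, and 57.3, 55.9, 53.4 and 59.9 in untreated all. Treated libraries lay far above untreated ones, with a log2 fold change of 0.93 ± 0.05 (SE; adjusted p = 5.8e-08), a 1.9-fold rise, and that of PD-L1 high against untreated all was 0.87 ± 0.05 (SE; adjusted p = 1.3e-07). Its partner Psmg3 rose by only 0.12 ± 0.04 (SE; adjusted p = 0.014), a call lost without treated all 1 (0.09) or without untreated libraries 3 and 4 (0.12).

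Psmg2, which pairs with PSMG1, went the other way, at 31.7, 28.9 and 31.1 in PD-L1 high, 31.2, 29.0 and 26.8 in treated all, and 35.5, 37.6, 35.8 and 37.1 in untreated all. Every treated library lay below every untreated one, and the log2 fold change was −0.32 ± 0.05 (SE; adjusted p = 2.8e-04) in treated all and −0.25 ± 0.05 (SE; adjusted p = 0.0017) in PD-L1 high, both against untreated all. It was the only member that was lower under every alternative tried in treated all against untreated all. Psmg1 was at 60.4, 57.2 and 58.0 in PD-L1 high, 64.6, 66.5 and 65.4 in treated all, and 60.2, 63.6, 62.2 and 61.4 in untreated all, a rise of 0.08 ± 0.03 (SE; adjusted p = 0.033) that was lost without any one of treated all 2 and 3, and untreated all 1, 3 and 4 (0.07 to 0.08). Pomp, the chaperone that matures the beta ring and is no member by name, rose by 0.62 ± 0.03 (SE; adjusted p = 5.5e-08), with 405, 447 and 407 in treated all against 275, 269, 276 and 268 in untreated all.

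**Figure D3:**
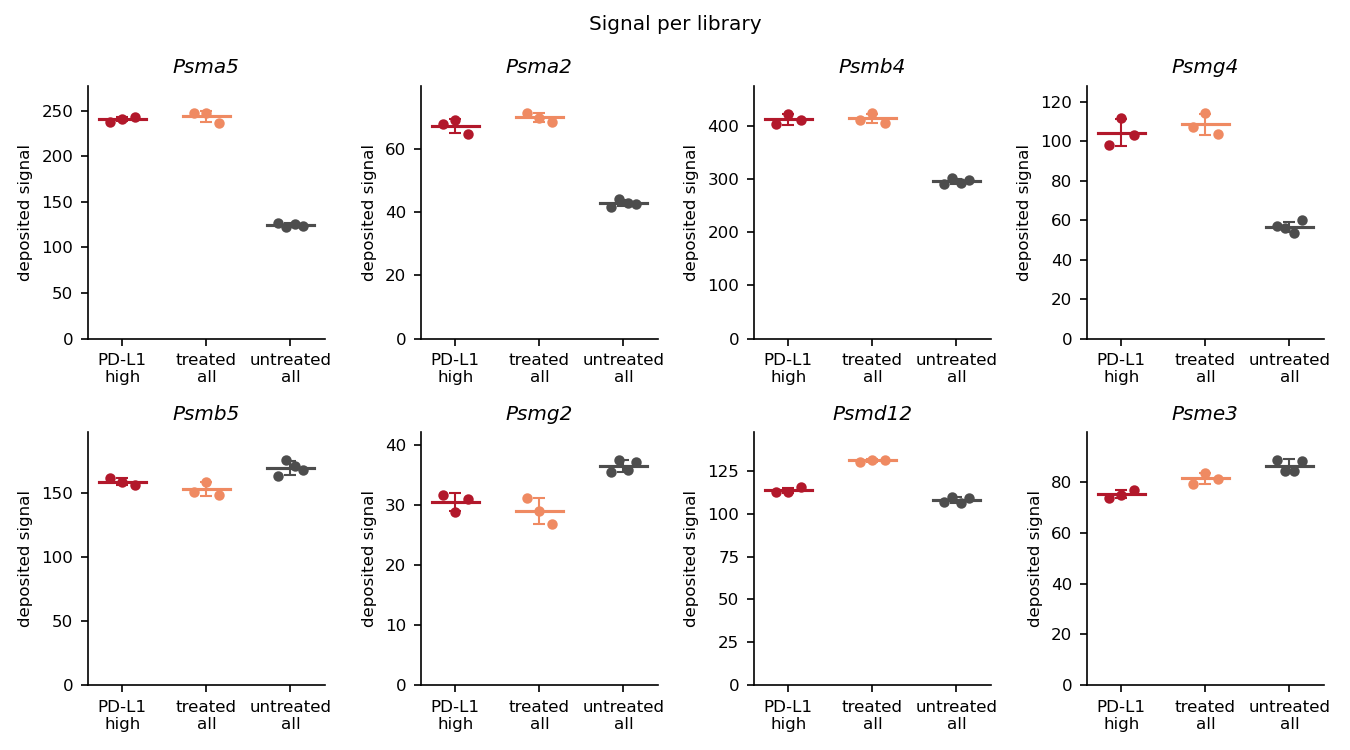
Deposited signal of 8 members in each library, on linear axes from 0, with a line at the group mean and bars of 1 SD (n = 3, 3 and 4). Psma5 and Psmg4 are high in both IFNγ-treated groups, Psmb5 and Psmg2 are highest in untreated all, and Psmd12 is highest in treated all, at 130.3, 132 and 132.

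All 8 members in the 19S lid, which removes ubiquitin chains before degradation, rose with IFNγ by a small step, with log2 fold changes of 0.12 to 0.32 and a median of 0.21. Psmd11, a scaffold subunit (chromosome 11, 80428615 to 80473248, plus strand), had 62.0, 61.0 and 61.6 in PD-L1 high, 69.3, 69.4 and 67.4 in treated all, and 57.8, 52.4, 53.9 and 56.1 in untreated all, with 0.32 ± 0.03 (SE; adjusted p = 1.4e-05). Psmd12 (chromosome 11, 107479484 to 107504362, plus strand), another scaffold subunit, had 113, 113 and 115 in PD-L1 high, 130.3, 132 and 132 in treated all, and 107, 109.7, 106 and 109 in untreated all, with 0.28 ± 0.02 (SE; adjusted p = 8.6e-07). Treated all was the highest group in both genes, without overlap. Psmd14, the lid's deubiquitinase, was at 0.28, Psmd6 at 0.22, Psmd3 at 0.20, Psmd8 at 0.18, Psmd7 at 0.18 and Psmd13 at 0.12. The call of Psmd13, which overlaps Sirt3, was lost without any one of treated all 2 and 3 (0.10) or without untreated libraries 3 and 4 (0.12).

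In the ring of ATPases that unfolds substrates, 4 of 6 rose and 2 were not called. Psmc6 (chromosome 14, 45329788 to 45349705, plus strand) had 70.2, 72.1 and 74.2 in PD-L1 high, 77.8, 81.7 and 77.9 in treated all, and 63.6, 61.7, 64.5 and 60.4 in untreated all, with 0.33 ± 0.03 (SE; adjusted p = 5.9e-06). Psmc2 and Psmc4 were at 0.32 and 0.31. Psmc3 was at 0.08 ± 0.03 (SE; adjusted p = 0.027), a call lost without any one of treated all 2, and untreated all 1 and 3 (0.06 to 0.07) or without untreated libraries 3 and 4 (0.08). Psmc5 was at 0.04 (adjusted p = 0.2) and Psmc1 at 0.01 (adjusted p = 0.81). The 6 ATPases, which sit in the ring in 1 copy each, ranged from 0.01 to 0.33. With median-ratio scaling Psmc1 and Psmc5 were called too, at 0.10 and 0.13.

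Of the base subunits without ATPase activity, the ubiquitin receptor gene Psmd4 (chromosome 3, 95032694 to 95042614, minus strand) rose by 0.31 ± 0.03 (SE; adjusted p = 1.9e-06), with 185, 178 and 183 in PD-L1 high, 193, 195 and 188 in treated all, and 152, 159, 151 and 159 in untreated all. The scaffold gene Psmd1 rose by 0.20 ± 0.03 (SE; adjusted p = 6.9e-05), with 125, 132 and 123 in PD-L1 high, 139.8, 135 and 139.8 in treated all, and 122, 119, 120.2 and 120.4 in untreated all. The other scaffold gene, Psmd2, had 203, 207 and 209 in PD-L1 high, 216, 213 and 220.1 in treated all, and 226, 220.4, 219.6 and 225 in untreated all, where treated and untreated libraries overlapped (−0.04, adjusted p = 0.1). Of the base chaperones, Psmd9, whose gene overlaps Hpd, had 23.4, 22.3 and 21.2 in PD-L1 high, 28.5, 26.2 and 28.9 in treated all, and 19.3, 24.5, 22.4 and 21.4 in untreated all and rose by 0.34 ± 0.07 (SE; adjusted p = 0.0018). Psmd10, also called gankyrin, had 38.6, 35.6 and 39.4 in PD-L1 high, 34.6, 37.2 and 37.9 in treated all, and 29.8, 31.8, 30.1 and 31.5 in untreated all and rose by 0.24 ± 0.05 (SE; adjusted p = 9.6e-04). Psmd5 had 46.4, 33.5 and 33.6 in PD-L1 high, 31.8, 32.6 and 35.9 in treated all, and 35.3, 32.0, 33.3 and 34.2 in untreated all, with PD-L1 high library 1 above the rest, and was not called (−0.01, adjusted p = 0.92).

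The alternative caps and the inhibitor were the group with no rise: 0 of 3 rose, 1 fell and 2 were not called. Psme3 (chromosome 11, 101316213 to 101323537, plus strand), a nuclear cap related to the IFNγ-inducible PSME1 and PSME2, had 73.9, 75.0 and 76.8 in PD-L1 high, 79.3, 83.6 and 81.3 in treated all, and 88.9, 84.4, 84.3 and 88.5 in untreated all, a log2 fold change of −0.09 ± 0.03 (SE; adjusted p = 0.03) in treated all against untreated all. That call was lost without any one of treated all 1 and 3, and untreated all 1 and 4 (−0.09 to −0.07), without untreated libraries 3 and 4 (−0.09) and with median-ratio (0.00) or upper-quartile scaling (−0.02). In contrast Psme1 had 474, 494 and 484 in treated all against 109, 110.1, 107 and 112 in untreated all, a rise of 2.13 ± 0.02 (SE; adjusted p = 3.4e-14), and Psme2 rose by 2.62. Psme4, another nuclear cap, was at −0.08 (adjusted p = 0.24) and the inhibitor Psmf1 at −0.004 (adjusted p = 0.96).

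Sorting on high PD-L1 within the IFNγ-treated cells went with slightly lower transcripts of some 19S subunits and chaperones, in a number that depended on the scaling, and with no higher member. Of 41 tested members 0 were higher in PD-L1 high than in treated all (limma; against 11.5% of all tested genes), 16 fell (39%, against 14.1%) and 25 were not called. At an unadjusted p under 0.05 there were 21 members, all lower (51.2%, against 38.2% of all tested genes in either direction). The median log2 fold change was −0.07, beside −0.01 over all tested genes. Of the 17 subunits of the 19S cap 10 fell, of the 14 of the 20S core 2 fell, and the difference between these shares was not tested. Without untreated libraries 3 and 4 these counts were 7 and 1, with median-ratio scaling 6 and 1, and with upper-quartile scaling 3 and 0. The groups were apart in 20 members on the lower side and 1 on the higher side, where 20.7% and 17.4% of all tested genes were apart.

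The number of falls depended on the libraries used and on the scaling. It was 10 without untreated libraries 3 and 4, which enter through the shared spread (8.78% of all tested genes were then lower), 10 without PD-L1 high library 1 (11.7% of all), 10 with median-ratio scaling (12.3%) and 5 with upper-quartile scaling. With upper-quartile scaling the 12.2% of members that were lower lay close to the 9.54% of all tested genes. A fit of PD-L1 high and treated all alone gave 11 falls (9.85% of all tested genes were then lower), with 10 of the 16 main falls kept. No alternative gave a member that was higher.

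The fall with the smallest adjusted p was that of the lid subunit Psmd12, whose values are given above: 114 ± 1.5 in PD-L1 high and 131 ± 0.83 in treated all (mean ± SD, n = 3 each), with a log2 fold change of −0.21 ± 0.02 (SE; adjusted p = 9.4e-05). The base chaperone gene Psmd9 had the largest fall, at −0.31 ± 0.08 (SE; adjusted p = 0.013), and its PD-L1 high libraries lay among the untreated ones. The ATPase gene Psmc4 had 98.5, 97.5 and 90.7 in PD-L1 high, 109, 109 and 105 in treated all, and 84.5, 89.2, 89.3 and 84.1 in untreated all, a log2 fold change of −0.17 ± 0.04 (SE; adjusted p = 0.0084). In each of these genes PD-L1 high lay below treated all without overlap. The chaperone genes Psmg1 and Psmg3 fell, at −0.16 ± 0.03 (SE; adjusted p = 0.0042) and −0.15 ± 0.04 (SE; adjusted p = 0.017), while Psmg4 differed by −0.06 (adjusted p = 0.5) and Psmg2 by 0.07 (adjusted p = 0.37).

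The other falls were those of Psmd11 (−0.16), Psmd14 (−0.14), Psmc6 (−0.13), Psmd1 (−0.13), Psmc2 (−0.12), Psme3 (−0.11), Psmc5 (−0.11), Psmb7 (−0.10), Psmd3 (−0.09), Psmb3 (−0.08) and Psmd2 (−0.07). Psmb7, given above, and Psmb3, at 477, 471 and 480.2 in PD-L1 high, 493, 522 and 496 in treated all, and 425, 443, 426 and 439 in untreated all, were the only members of the 20S core among them. The call of Psmb3 was lost without any one of PD-L1 high 1, 2 and 3, treated all 2 and 3, and untreated all 3 and 4 (−0.09 to −0.05). That of Psmd14 was lost without any one of PD-L1 high 1 and 3, treated all 1 and 2, and untreated all 3 and 4 (−0.15 to −0.10), that of Psmd2 without any one of PD-L1 high 1 and 2, treated all 1 and 3, and untreated all 3 and 4 (−0.07 to −0.06) and that of Psme3 without any one of PD-L1 high 1 and 2, and treated all 2 and 3 (−0.11 to −0.09). Those of Psmc5 and Psmc6 were lost without any one of PD-L1 high 2 and treated all 2 (−0.09 to −0.08 for Psmc5) and any one of PD-L1 high 1 and treated all 2 (−0.11 for Psmc6). That of Psmg3 was lost without any one of PD-L1 high 1 and treated all 1 (−0.14 to −0.12). With upper-quartile scaling only the falls of Psmc4, Psmd9, Psmd11, Psmd12 and Psmg1 were still called. With median-ratio scaling those of Psmb3, Psmc5, Psmc6, Psmd2, Psmd3 and Psme3 were lost.

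None of the 7 alpha subunits was called in this comparison, with log2 fold changes of −0.10 to −0.02, and the alpha subunit nearest the threshold was Psma1, at −0.06 ± 0.02 (SE; adjusted p = 0.056). In the limma fit of these groups alone, which kept only 10 of the 16 falls, Psma3 was called, at −0.10 (adjusted p = 0.046). Psma5 differed by −0.02 ± 0.02. Psmb5 was at 0.06 ± 0.03 (SE; adjusted p = 0.25) and Psmb6 at −0.02 ± 0.03 (SE; adjusted p = 0.68). The 19S subunits that were not called were Psmd8 (0.05), Psmc3 (0.01), Psmd6 (−0.01), Psmc1 (−0.05), Psmd13 (−0.07), Psmd7 (−0.07) and Psmd4 (−0.08). Psmb1, Psmb2 and Psmb4 were at −0.04, −0.06 and −0.01, and Psmd5, Psmd10, Psme4 and Psmf1, also not called, at 0.16, 0.05, −0.09 and 0.09. A missed threshold does not show that levels were equal.

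**Figure D4:**
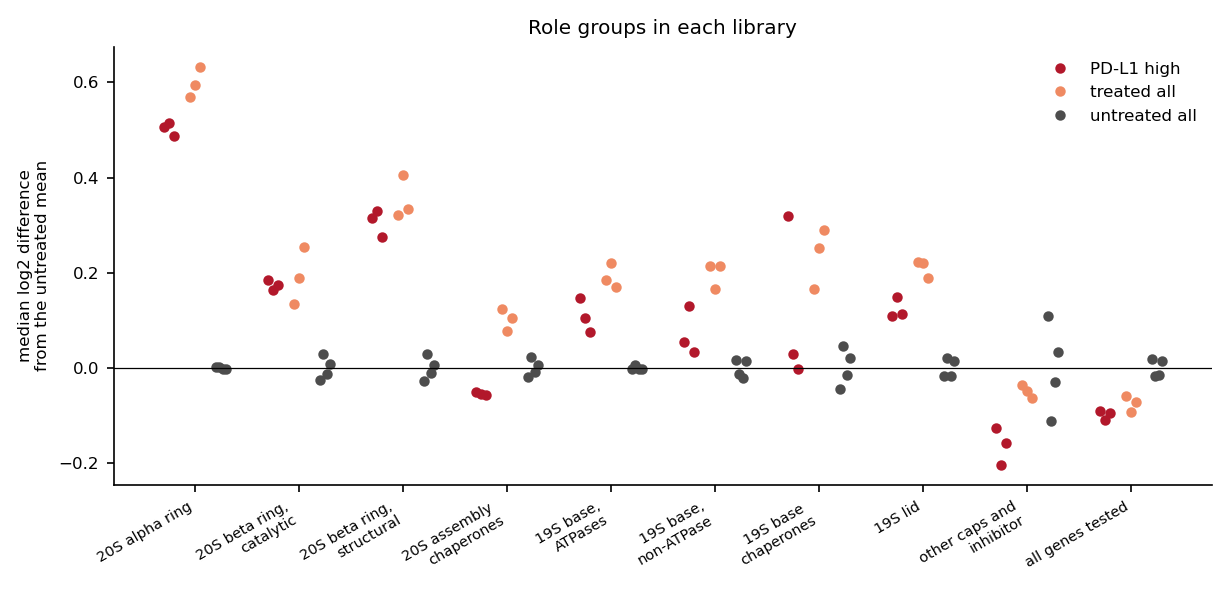
Median over the tested members of each role of the log2 difference from the mean of the 4 untreated libraries, 1 point per library, beside the same over all 11487 tested genes; no test was run on these medians. The alpha ring is at 0.51, 0.51 and 0.49 in PD-L1 high and 0.57, 0.59 and 0.63 in treated all, and the lid at 0.11, 0.15 and 0.11 in PD-L1 high and 0.22, 0.22 and 0.19 in treated all.

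The medians of the PD-L1 high libraries lay between those of treated all and the untreated mean for the alpha ring and for the cap. The alpha ring median was 0.51, 0.51 and 0.49 in the PD-L1 high libraries and 0.57, 0.59 and 0.63 in the treated all libraries, on the log2 scale relative to the untreated mean. The median of the 17 cap subunits was 0.11, 0.15 and 0.10 in PD-L1 high and 0.21, 0.20 and 0.19 in treated all. That of all tested genes was −0.09, −0.11 and −0.10 in PD-L1 high and −0.06, −0.09 and −0.07 in treated all. These are descriptions of the libraries, and both groups are set against the same untreated ones.

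In PD-L1 high against untreated all, which shares libraries with both other comparisons, 28 of 41 members were higher (68.3%, against 19.1% of all tested genes), 6 were lower (14.6%, against 41%) and 7 were not called. All 7 tested alpha subunits and all 4 structural beta subunits were higher, from 0.14 in Psmb3 to 0.94 in Psma5. Psmd8, a lid subunit, had 119.8, 112 and 112 in PD-L1 high, 109.9, 110.2 and 111 in treated all, and 95.4, 99.2, 95.6 and 98.7 in untreated all, the largest rise among the 8 lid members at 0.23 ± 0.03 (SE; adjusted p = 5.1e-05). Psmd2 was the only cap subunit that was lower, at −0.11 ± 0.02 (SE; adjusted p = 8.6e-04), a call that ended under median-ratio (−0.01) or upper-quartile scaling (−0.02). The other lower members were Psmg2, Psme3 (−0.20), Psme4 (−0.17), Psmb5 (−0.09; 0.01 with median-ratio scaling) and Psmg1 (−0.08; 0.03 with median-ratio and 0.01 with upper-quartile scaling). The lower count was 3 without untreated libraries 3 and 4, 3 without PD-L1 high library 2 and 2 with median-ratio or upper-quartile scaling, and the higher count was 24, 26, 31 and 29 under these 4 changes. Over all tested genes 2189 were higher and 4711 lower, a split that median-ratio scaling moved to 3247 and 3113 and upper-quartile scaling to 2900 and 3086.

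Some of these calls were lost when 1 library was left out. Those of Psmb5 were lost without any one of PD-L1 high 2 and 3, and untreated all 2 and 3 (−0.09 to −0.08), of Psmg1 without any one of PD-L1 high 2 and 3, and untreated all 2, 3 and 4 (−0.08 to −0.06) and of Psme4 without any one of PD-L1 high 2 and untreated all 4 (−0.16 to −0.14). Among the higher members, those of Psmd1 were lost without any one of PD-L1 high 2, and untreated all 2, 3 and 4 (0.04 to 0.07), of Psmc3 without any one of PD-L1 high 1 and untreated all 3 (0.07), of Psmd12 without PD-L1 high 3 (0.06) and of Psmd7 without PD-L1 high 2 (0.08). Read across the 3 groups, 18 members were higher in both comparisons with untreated all and not called between the treated groups. Another 10 were higher in both and lower in PD-L1 high than in treated all, so that PD-L1 high lay between the other groups: Psmb3, Psmb7, Psmc2, Psmc4, Psmc6, Psmd1, Psmd3, Psmd11, Psmd12 and Psmd14. The share of all tested genes with either pattern was not computed, so the counts are descriptions only. Several of the calls between the treated groups, such as those of Psmb3 and Psmd14, were lost under other settings.

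Factors that bind the proteasome but lie outside the naming rule were mixed. With IFNγ 6 of 11 rose and 2 fell (4 higher and 2 lower without untreated libraries 3 and 4). Between the treated groups 1 of 11 rose and 3 fell (0 higher and 2 lower), with 11 of the 13 listed symbols tested. Zfand2a, a stress-inducible gene whose protein binds the cap, was at 21.9, 20.3 and 22.0 in PD-L1 high, 33.8, 30.3 and 31.7 in treated all and 20.9, 20.6, 20.2 and 21.3 in untreated all, with log2 fold changes of −0.55 between the treated groups and 0.60 with IFNγ. Adrm1, a ubiquitin receptor of the cap, changed by −0.19 and 0.26 in the same comparisons. Sem1, the smallest lid subunit, rose by 0.40 with IFNγ, and Ipo9, an importin, fell, at −0.34. Usp14, a deubiquitinase of the cap, was lower in PD-L1 high at −0.16, and Akirin2, a nuclear import factor of proteasomes, higher at 0.15. The call of Usp14 was lost without any one of PD-L1 high 2 and 3, and treated all 1 (−0.15 to −0.12), and those of Usp14 and Akirin2 without untreated libraries 3 and 4.

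Regulators known to act on proteasome gene transcription were mixed. With IFNγ 7 of 13 rose and 1 fell, and between the treated groups 1 of 13 rose and 5 fell. Nfe2l1, which encodes NRF1, the factor that raises proteasome genes when proteasomes fail, was at 121, 112 and 117 in PD-L1 high, 127, 115 and 116 in treated all, and 113, 111, 111 and 113 in untreated all, and was at the threshold with IFNγ (0.09, adjusted p = 0.05) but not called, nor was it between the treated groups (−0.03, adjusted p = 0.58). Nfe2l1 was called higher with IFNγ without treated all 2 (0.12) or 3 (0.11) and with median-ratio (0.18) or upper-quartile scaling (0.16). Nfe2l2, which encodes NRF2, was at 107, 106 and 109.8 in PD-L1 high, 134, 129 and 127 in treated all, and 91.4, 93.1, 92.0 and 92.1 in untreated all, higher with IFNγ at 0.49 ± 0.02 (SE; adjusted p = 2.0e-08) and lower in PD-L1 high than in treated all at −0.27 ± 0.03 (SE; adjusted p = 3.3e-05). The 3 groups did not overlap. The NRF2 partner Mafk and the repressor Bach1 of the same sites were also higher with IFNγ, at 0.26 and 0.42, and lower in PD-L1 high than in treated all, at −0.28 and −0.40. Their PD-L1 high libraries overlapped the untreated ones, with 40.7, 39.9 and 41.6 in PD-L1 high against 40.1, 42.8, 40.4 and 42.2 in untreated all for Mafk. Stat3 rose by 0.66 with IFNγ and Nfya, a subunit of NF-Y, fell, at −0.83.

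Upstream of the proteasome, ubiquitin genes and activating enzymes had 3 of 7 members higher and 2 lower with IFNγ. The large rise was Uba7, the activating enzyme of the ubiquitin-like modifier ISG15, at 2.91; the polyubiquitin gene Ubb was at −0.12, and between the treated groups at 0.23. The fall of Ubb with IFNγ was not called with median-ratio (−0.03) or upper-quartile scaling (−0.05). Of the ubiquitin receptors and shuttles, which carry substrates to the cap, 1 of 8 rose and 5 fell, with Sqstm1 at 0.60 and Ubqln4 and Ubqln2 at −0.45 and −0.29. In PD-L1 high Sqstm1 was lower than in treated all, at −0.34 ± 0.02 (SE; adjusted p = 1.4e-06). The p97 segregase list, whose members pull ubiquitinated proteins out of membranes and complexes, had 5 of 11 higher and 2 lower with IFNγ, with Derl1 at 0.26 and Ufd1 at 0.26; between the treated groups Vcp, which encodes p97, was the only called member, at −0.07, a call lost without any one of PD-L1 high 1 and 3, treated all 1, 2 and 3, and untreated all 3 and 4 (−0.07 to −0.06).

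Counts for other large complexes are given beside those of the members, without a test of the difference. Of the COP9 signalosome, whose subunits are related to those of the lid, 3 of 10 rose and 2 fell with IFNγ (median 0.03), where 8 of 8 lid genes rose. Of the cytosolic chaperonin CCT, which folds actin and tubulin, 2 of 8 rose and 1 fell with IFNγ (median 0.00), but with median-ratio scaling 6 of 8 rose, as did 5 of 10 COP9 genes. Without untreated libraries 3 and 4 there were 1 higher and 0 lower in the chaperonin and 1 higher and 1 lower in COP9. Between the treated groups 6 of 8 chaperonin genes fell (median −0.11), among them Cct5 at −0.19 and Cct8 at −0.16, and 2 of 10 COP9 genes (median −0.06), with 5 chaperonin genes still lower with median-ratio scaling. Genes that load the peptides onto MHC class I rose in 8 of 9 cases with IFNγ (median 2.84) and in 5 of 9 between the treated groups (median 0.15), or 3 without untreated libraries 3 and 4. The inducible proteasome genes with Pomp rose in 6 of 6 cases with IFNγ, and between the treated groups Psmb8 (0.17) and Psmb9 (0.19) were higher in PD-L1 high, where no constitutive member was; the call of Psmb9 was lost without any one of PD-L1 high 1, 2 and 3, and treated all 1, 2 and 3 (0.17 to 0.21).

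The non-member genes whose profile over the 10 libraries was most like the mean profile of the 41 tested members were Neat1, Pdia6, Rab20, Pi4k2a and Krt18. Their likeness, measured as the Pearson correlation of log2 values, was 0.995 to 0.997; it is a description, since it rests mainly on the differences between the 3 groups. Neat1, a long noncoding RNA, was at 107, 107 and 103 in PD-L1 high, 138, 138 and 139.9 in treated all and 50.3, 47.7, 49.2 and 48.6 in untreated all.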

How the data were processed

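RNA of 10 libraries was sequenced from a TruSeq library preparation, per the labels. The build mm10 and CASAVA 1.7 come from the submitters' processing notes. Alignment, counting, normalization and use of strand were not given in the sources used here. Values are the authors' deposited signal, 1 column per library, in an unstated normalized unit; their group means were not used. Library columns were matched to samples by title.

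Of 25507 rows 695 had no value; rows sharing a mouse symbol (52 symbols) were added up. The 11487 genes averaging 1 or more over the libraries were transformed as log2(signal + 1), which understates folds of low genes. They were fitted with limma 3.58.1 (R 4.3.3) with 1 mean per group, an intensity trend, robust variances and Benjamini-Hochberg adjustment. The model was also run on simulated data with independent noise in each library. That run cannot speak to dependence between the untreated libraries. Depth per library is unknown, so no count test or counting interval could be had.

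The members follow from a rule on gene names that uses no measured value. That rule, the gene lists, tests and alternatives were set with earlier results of these data known. Every member is named; values in every library are given for the catalytic subunits, for the largest called rise and fall per role and comparison and for called log2 changes of at least 0.5, and outside the members up to 4 called genes per list are named, some genes being not reported here. Ranges of a call's value without single libraries are on the log2 scale. Alternatives were other pseudocounts, filters and scalings, fits of the compared groups alone, a replicate block and left-out libraries. Coordinates are from GENCODE (GRCm38, the assembly of mm10); 18 of 42 members overlap another annotated gene. Plots were made in Python 3.11.15 with matplotlib 3.10.9.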

Additional observations from a re-analysis of the deposited data

How the results depend on the processing

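Over 18 alternatives for each of 41 tested members, the direction and the call were the same in 690 of 738 cases in treated all against untreated all, 660 in PD-L1 high against treated all and 687 in PD-L1 high against untreated all. Counts of higher members stayed within 1.5 times throughout, at 29 to 32, 0 and 26 to 28 when single libraries were left out. Lower members numbered 2 to 3, 10 to 16 and 3 to 6 when single libraries were left out, against 3, 16 and 6. They numbered 1, 10 and 2 with median-ratio scaling, 1, 5 and 2 with upper-quartile scaling, and 10 and 3 in the last 2 comparisons without untreated libraries 3 and 4, a fit with fewer samples. Median-ratio scaling moved the median log2 fold change of all tested genes from −0.10 to −0.003 for PD-L1 high against untreated all. For treated all against untreated all it went from −0.075 to 0.006, and between the treated groups from −0.007 to 0.008. The cause of the moves in the counts of lower members was not tested.

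Same-numbered libraries showed little joint deviation: 1 of 9 pairs correlated above 0.1 (range −0.181 to 0.104). Between treated all and PD-L1 high the same-numbered pairs were at 0.023, 0.104 and 0.046. The differently numbered pairs of these groups were at −0.072 to 0.022. Whether the numbers pair samples is not stated, and correlations this small cannot decide it. With a replicate block 29, 0 and 27 members were higher and 2, 11 and 5 lower.

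Log2 values that changed sign were near 0. With median-ratio scaling they were Psmd2 0.05, Psmd5 0.07, Psme3 0.00, Psme4 0.01 and Psmf1 0.08 in treated all against untreated all; Psmb4 0.01 and Psmd6 0.00 in PD-L1 high against treated all; Psmb5 0.01, Psmc1 0.07, Psmc5 0.04, Psmg1 0.03 and Psmg3 0.07 in PD-L1 high against untreated all. With upper-quartile scaling they were Psmd2 0.03, Psmd5 0.06 and Psmf1 0.06 in treated all against untreated all; Psma5 0.00, Psmb4 0.01, Psmb6 0.00 and Psmd6 0.01 in PD-L1 high against treated all; Psmc1 0.05, Psmc5 0.03, Psmg1 0.01 and Psmg3 0.06 in PD-L1 high against untreated all. With a replicate block it was Psmf1 0.00 in treated all against untreated all. Without single libraries the range was Psmc1 −0.01 to 0.03, Psmd5 −0.06 to 0.02 and Psmf1 −0.05 to 0.04 in treated all against untreated all; Psmb4 −0.02 to 0.01, Psmb6 −0.05 to 0.01, Psmc3 −0.01 to 0.03, Psmd6 −0.03 to 0.00 and Nfe2l1 −0.06 to 0.01 in PD-L1 high against treated all; Psmd5 0.00 to 0.22 and Psmd9 −0.03 to 0.08 in PD-L1 high against untreated all. Of these values, those of Psme3, Psmb5 and Psmg1 under the other scalings belonged to calls.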
